A study of Cavia porcellus with 12 samples.

Results

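The miR-15 family of microRNAs was followed here through its precursors hsa-mir-15a, hsa-mir-15b, hsa-mir-16-1, hsa-mir-16-2, hsa-mir-195 and hsa-mir-497. Its members were the entries of 3 deposited tables whose name ended exactly in 1 of these 6 precursors, which gave 68 entries of 5095. An entry is 1 sequence listed under 1 human precursor with the position in that precursor at which it starts. The cells studied were ventricular cardiomyocytes, the contractile cells of the heart, obtained by perfusing and digesting hearts of Hartley guinea pigs, all adult and female. The cells were kept at room temperature with 10 µM doxorubicin (DOX), an anthracycline used against tumours that damages the heart, or with its solvent dimethyl sulfoxide (DMSO), for 1 h or 22 h. The 12 small RNA libraries formed 4 groups of 3: DMSO 1 h, DOX 1 h, DMSO 22 h and DOX 22 h. The reads had been aligned to human sequences, and the family entries used here are those placed on a human precursor.

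MicroRNAs are short RNAs that guide the Argonaute proteins to messenger RNAs, mainly through the seed, a run of bases near the 5′ end. The miR-15 family is known for repressing cell cycle genes and the survival factor Bcl2, and in the heart it has been linked to the end of cardiomyocyte division after birth and to the response to ischaemia. In mammals its genes lie in pairs that are transcribed together: mir-15a with mir-16-1, mir-15b with mir-16-2, and mir-497 with mir-195. The mature mir-16 is the same from both of its genes.

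The most abundant sequence of each member is shown first, since the family is defined by what these share. Capitals mark the 7 letters at which all of them begin, which hold most of the seed. No reference mature sequence was used, so the first listed base may lie inside the mature miRNA. Starts and lengths in this report are those of the listed sequences.
mir-16: GCAGCACgtaaatattggcg
mir-15b: GCAGCACatcatgatttaca
mir-195: GCAGCACagaaatattggc
mir-15a: GCAGCACataatggtttgt
mir-497: GCAGCACactgtggtttgt
These 7 letters opened each of the 39 sequences that started at the main position of a 5p arm, the arm at the 5′ side of the precursor. Past them the members diverged. The leading mir-16 and mir-195 sequences had 17 of 19 compared bases in common and differed by G8A and T9G, with positions counted from the first listed base and the mir-16 base given first. The leading mir-15a and mir-497 sequences had 16 of 19 in common, mir-15a and mir-15b 15 of 19, while mir-16 and mir-497 had 10 of 19. By sequence, mir-16 thus stood nearest to mir-195, and mir-15a to mir-497, across the genomic pairs. For mir-15a the lead was narrow, since mir-15b was almost as close.

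The 68 entries held 53 different sequences of 15 to 21 bases, 44 of the 5p arm and 9 of the 3p arm. The listed start of the 5p arm hardly varied. Sequences at the main start made up 99.97% of the 5p signal in the table of DOX 22 h against DOX 1 h, and the 5 others together had a mean of 9.64 there. The 3p arms were nearly absent, with 0.184% of the family's signal in that table. They were listed for mir-15b, mir-16-2 and mir-195. The variety of the family was therefore at the 3′ end of the 5p arm.

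Each deposited table carried 1 level for an entry, the authors' mean of normalised reads over both sides of its comparison. In the table of DOX 1 h against DMSO 1 h the family summed to 0.703% of all means, in that of DOX 22 h against DMSO 22 h to 0.547%, and in that of DOX 22 h against DOX 1 h, called the third table below, to 0.569%. The tables were normalised separately and the 22 h table as used here lacked 1 abundant mir-16 sequence, so these shares are not compared. The order of the members was the same in all 3 tables. mir-16 came first with 61.2%, 57.8% and 60.0% of the family's signal in the 1 h table, the 22 h table and the third table. mir-15b followed with 18.996%, 19.3% and 18.5%. mir-195 held 12.5%, 14.1% and 12.7%, mir-15a 4.68%, 5.65% and 5.56%, and mir-497 2.62%, 3.21% and 3.28%. Among the 427 precursor arms with signal in the third table, the 5p arms of hsa-mir-16-1 and hsa-mir-16-2 ranked 51 and 52, that of hsa-mir-15b 58, hsa-mir-195 71, hsa-mir-15a 97 and hsa-mir-497 115.

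The labelled cell type was checked against marker miRNAs. All 7 cardiomyocyte precursors, with mir-1, mir-133a, mir-208 and mir-499a, were listed, and they held 33.5% of the 1 h signal, 35.2% of the 22 h signal and 37.1% of the signal in the third table. Their most abundant precursor was hsa-mir-1-2. Markers of other cells were present too. The smooth muscle pair hsa-mir-143 and hsa-mir-145 held 19.4%, 20.96% and 19.8%, nearly all of it hsa-mir-143, and the endothelial hsa-mir-126 held 4.41%, 3.83% and 3.24%. The fibroblast markers hsa-mir-199a-1, hsa-mir-199a-2 and hsa-mir-214 held 0.266%, 0.201% and 0.197%. Red blood cell markers stood at 0.0267%, 0.0211% and 0.0217%, led by hsa-mir-486-2, and white blood cell markers at 0.00884%, 0.00631% and 0.00707%, led by hsa-mir-142. In such bulk samples, fewer cells of a type and less RNA per cell cannot be told apart.

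Reads of single libraries were read back from the means. At 22 h and in the third table every mean was a whole multiple of 1 step, as 1 library on each side produces, and where a predicted miRNA was named in them, its name gave replicate 1 on each side. The DOX 22 h library was in both tables, so that the reads of DOX 22 h, DMSO 22 h and DOX 1 h could be solved together. This gave 1 solution for 1216 entries of the series, 39 of them in the family. The 1216 entries held 474736 reads in DOX 22 h, 440362 in DMSO 22 h and 623625 in DOX 1 h. They made up 9.06% of the summed means of the third table, since the most abundant entries kept several solutions. For the family's 5p arms they covered 91.8% of that signal. Every library value below is thus 1 library, replicate 1 of its group, with no replicate check, and intervals are 95% intervals that cover counting error only. The 1 h means were no such multiples, so DOX 1 h was compared with DMSO 1 h for no member.

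The 5p arms of the family had 25904 reads in DOX 22 h, 26172 in DMSO 22 h and 37713 in DOX 1 h. Scaled to the DOX 22 h library by the size factors, the last 2 came to 29430.1 and 29332. The DOX 22 h library was the lowest of the 3. The log2 ratio of DOX 22 h over DMSO 22 h was -0.18 (-0.21 to -0.16), and that of DOX 22 h over DOX 1 h was -0.18 (-0.20 to -0.16). Both comparisons share the DOX 22 h library. With each member's most abundant sequence alone, the ratio over DMSO 22 h was -0.086. As the median of single sequences it was -0.011 over DMSO 22 h and -0.083 over DOX 1 h. Without mir-16, the sum was at -0.078 (-0.12 to -0.040) over DMSO 22 h and at -0.15 (-0.18 to -0.11) over DOX 1 h. The family sum hid opposite values of its members.

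mir-497, the least abundant member, stood apart. Its 4 sequences had 1103 reads in DOX 22 h, 599 in DMSO 22 h and 1099 in DOX 1 h, or 674 and 855 in the last 2 after scaling. DOX 22 h was the highest of the 3 libraries and DMSO 22 h the lowest, and the 3 counting intervals did not overlap. The log2 ratio was 0.71 (0.57 to 0.86) over DMSO 22 h and 0.37 (0.25 to 0.49) over DOX 1 h. By form, the ratio over DMSO 22 h was 1.12 (0.89 to 1.35) at 19 bases and 0.50 (0.25 to 0.74) at 20 bases. It was 0.67 (0.17 to 1.19) at 21 bases with T21A. The unsubstituted 21-base form, with 111 reads in DOX 22 h and 99 in DMSO 22 h, showed no detectable difference, at -0.005 (-0.41 to 0.40). Of 111 precursor arms with at least 1000 reads over the 3 libraries and at least 80% of their signal read back, 3 had a higher ratio over DMSO 22 h and 10 a higher ratio over DOX 1 h.

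mir-16, the most abundant member, went the other way. Its 13 sequences had 14550 reads in DOX 22 h, and 17442 and 16754 scaled reads in DMSO 22 h and DOX 1 h. The log2 ratio was -0.26 (-0.29 to -0.23) over DMSO 22 h and -0.20 (-0.23 to -0.17) over DOX 1 h. Over DMSO 22 h it was only -0.017 for the most abundant sequence alone and -0.075 as the median of single sequences. Among the same 111 arms, 94 had a higher ratio over DMSO 22 h. An abundant mir-16 sequence of 20 bases, described below, could not be read back, so these sums cover 86.7% of the arm's signal in the third table.

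As listed, mir-15b was a single sequence for practical purposes, with 99.7% of its 5p signal in the form printed above. This form was its own standard for substitutions, so a difference from the human precursor would not show. Whether other mir-15b forms were lost in the alignment to human sequences was not tested. The printed form had 5008 reads in DOX 22 h and 5645 and 6035 scaled reads in DMSO 22 h and DOX 1 h. Its log2 ratios over these 2 were -0.17 (-0.23 to -0.12) and -0.27 (-0.32 to -0.22). mir-195 had 3685 reads in DOX 22 h and 4099.9 and 3909 scaled reads in DMSO 22 h and DOX 1 h. Its ratios were -0.15 (-0.22 to -0.087) and -0.085 (-0.15 to -0.024), the latter with the opposite sign, 0.037, for its most abundant sequence alone. Its 2 main forms went opposite ways over DMSO 22 h, with -0.38 (-0.47 to -0.28) for the 19-base form and 0.12 (0.015 to 0.23) for the 20-base form. mir-15a had 1558 reads in DOX 22 h and 1569.8 and 1779.6 scaled reads in DMSO 22 h and DOX 1 h. For mir-15a no difference from DMSO 22 h was detectable at this depth, with a log2 ratio of -0.011 (-0.12 to 0.094) for the sum of forms at 0.24 (0.059 to 0.43) for the 19-base form and -0.36 (-0.54 to -0.18) for the unsubstituted 21-base form, while the ratio over DOX 1 h was -0.19 (-0.29 to -0.098). The latter came mainly from the 19-base form at -0.45 (-0.60 to -0.30), and the unsubstituted 21-base form was at 0.044 (-0.13 to 0.22). The 3p arm of mir-15b, the only 3p sequence read back, had 14 reads in DOX 22 h, 20 in DMSO 22 h and 7 in DOX 1 h.

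**Figure D1:**
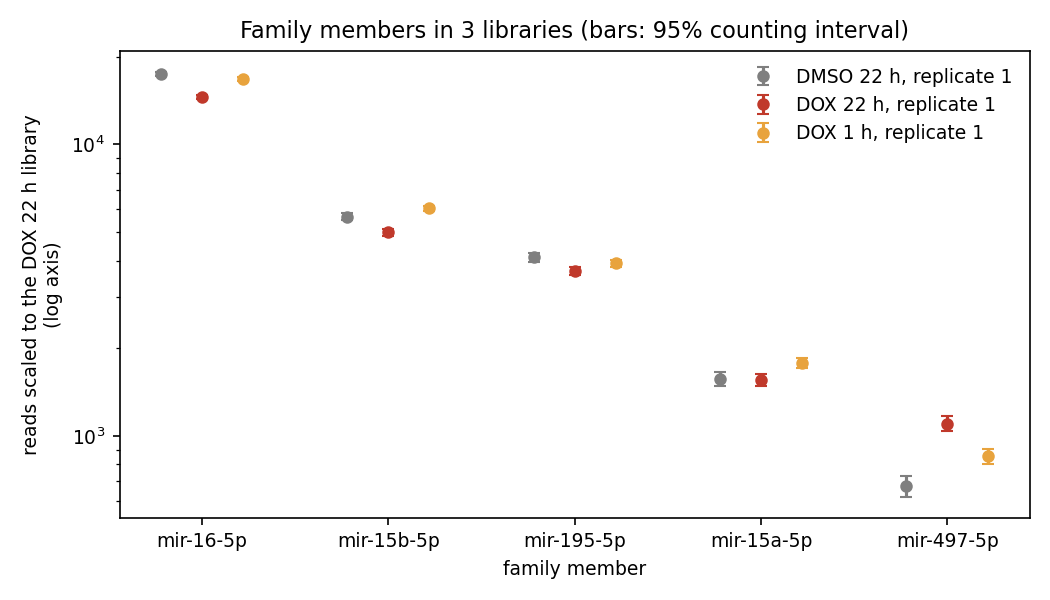
Reads of the 5p arm of each member (horizontal axis), scaled to the DOX 22 h library (vertical log axis), in the DMSO 22 h, DOX 22 h and DOX 1 h libraries, 1 library each; bars are 95% counting intervals. mir-16 is highest with 14550 to 17442 scaled reads, and mir-497, with 674 to 1103, is the member whose highest point is DOX 22 h.

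Entries were also counted past 2-fold, among those with at least 20 reads in the 2 libraries together. Over DMSO 22 h, 2 of 39 family entries were higher by 2-fold or more against 6.09% of all 1216 entries, and 2 of 39 were lower against 4.85%. Over DOX 1 h, 3 of 39 were higher against 5.21% of 1190, and 0 of 39 were lower against 1.68%. For the comparison over DOX 1 h, 572 entries with 1 solution from the third table alone, 13 of them in the family, could also be counted, and 0 of them reached 20 reads. These shares were near the background, and the counts say nothing particular to the family. The median log2 ratio of family entries was -0.075 over DMSO 22 h beside 0.0026 for all entries, and -0.13 over DOX 1 h beside 0.044. Of the 39 family entries 23 were of mir-16, with 10 sequences counted under both precursors, and with each 5p sequence counted once the family medians were -0.011 and -0.083.

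**Figure D2:**
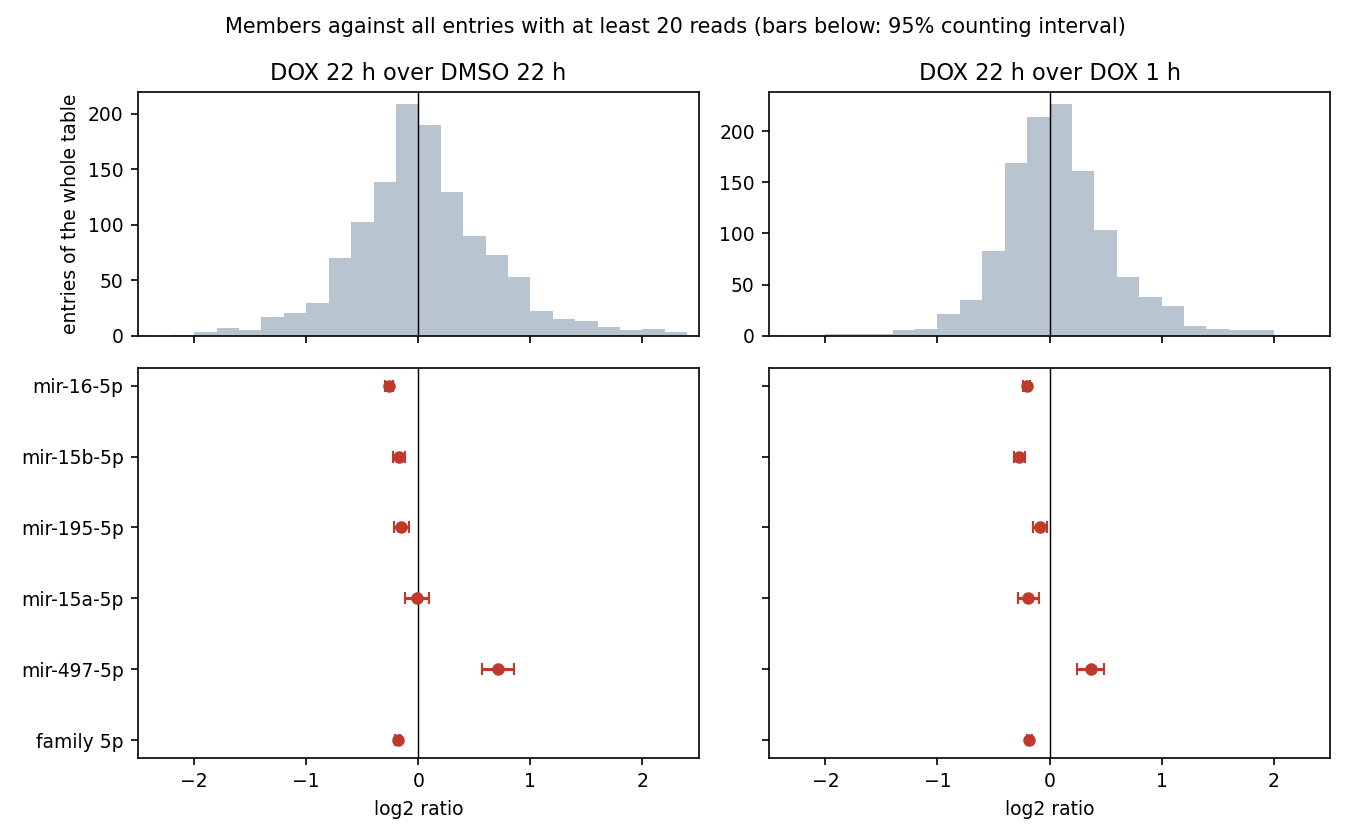
Top, the number of entries of the whole series with at least 20 reads by log2 ratio; bottom, the log2 ratio of each member's 5p arm and of their sum with 95% counting intervals; left, DOX 22 h over DMSO 22 h, right, DOX 22 h over DOX 1 h, 1 library a side. A few entries lie outside the axis. mir-497 is at 0.71 and 0.37, right of all other members in both panels.

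The 7 entries past 2-fold were of unequal depth. The 19-base mir-497 sequence printed above had 535 reads in DOX 22 h, 219 in DMSO 22 h and 526 in DOX 1 h, a log2 ratio over DMSO 22 h of 1.12 (0.89 to 1.35). The 21-base mir-16 sequence with C19T was lower in DOX 22 h under both precursors, with 234 reads against 427 under hsa-mir-16-1 and 235 against 445 under hsa-mir-16-2, or log2 ratios of -1.04 (-1.27 to -0.80) and -1.09 (-1.32 to -0.86). The other 4 had at most 47 reads in the 2 libraries compared. Under hsa-mir-16-1, a 21-base form with C19T and G20A had 24 reads in DOX 22 h and 10 in DMSO 22 h, a log2 ratio of 1.05 (-0.024 to 2.32). The remaining 3 were higher than in DOX 1 h. They were the 20-base mir-16 form with C19A and G20A, with 31 reads against 16 and a ratio of 1.30 (0.40 to 2.29), the 15-base mir-16 form, with 14 against 8 and 1.13 (-0.18 to 2.63), and the 3p arm of mir-15b, with 14 against 7 and 1.31 (-0.042 to 2.91).

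Ratios between members within 1 library do not depend on scaling, and they show the pairs directly. The paired mir-497 and mir-195 did not keep 1 ratio: mir-497 had 0.299 reads per mir-195 read in DOX 22 h (0.280 to 0.320), 0.164 in DMSO 22 h (0.150 to 0.179) and 0.219 in DOX 1 h (0.205 to 0.233). The 3 intervals did not overlap. The sum of the pair was nearly level, with 4788 reads in DOX 22 h and 4773 and 4764 scaled reads in DMSO 22 h and DOX 1 h. The higher mir-497 stood beside a lower sum of mir-195, whose forms differed in sign. mir-15a had 0.107 reads per mir-16 read in DOX 22 h (0.102 to 0.113), 0.0900 in DMSO 22 h (0.0851 to 0.0951) and 0.106 in DOX 1 h (0.102 to 0.111), so that DMSO 22 h was the library set apart in this ratio. Per mir-15b read, mir-15a had 0.311 reads in DOX 22 h (0.294 to 0.329), 0.278 in DMSO 22 h (0.262 to 0.295) and 0.295 in DOX 1 h (0.281 to 0.309). There the interval of DMSO 22 h overlapped with both others. For mir-15b over mir-16 the values were 0.344 (0.333 to 0.355), 0.324 (0.313 to 0.334) and 0.360 (0.351 to 0.370), and the interval of DOX 22 h overlapped with both others. mir-16 could not be divided between its 2 genes. The 10 sequences read back under both precursors were split almost evenly, with 50.2% (49.4 to 51.0) under hsa-mir-16-1 in DOX 22 h, 49.4% (48.6 to 50.2) in DMSO 22 h and 50.2% (49.6 to 50.9) in DOX 1 h. In 0 of 30 cases, 1 for each sequence and library, did the interval of a sequence leave an even split. The listing under 1 or the other precursor therefore carries no sign of its gene, and both were summed.

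**Figure D3:**
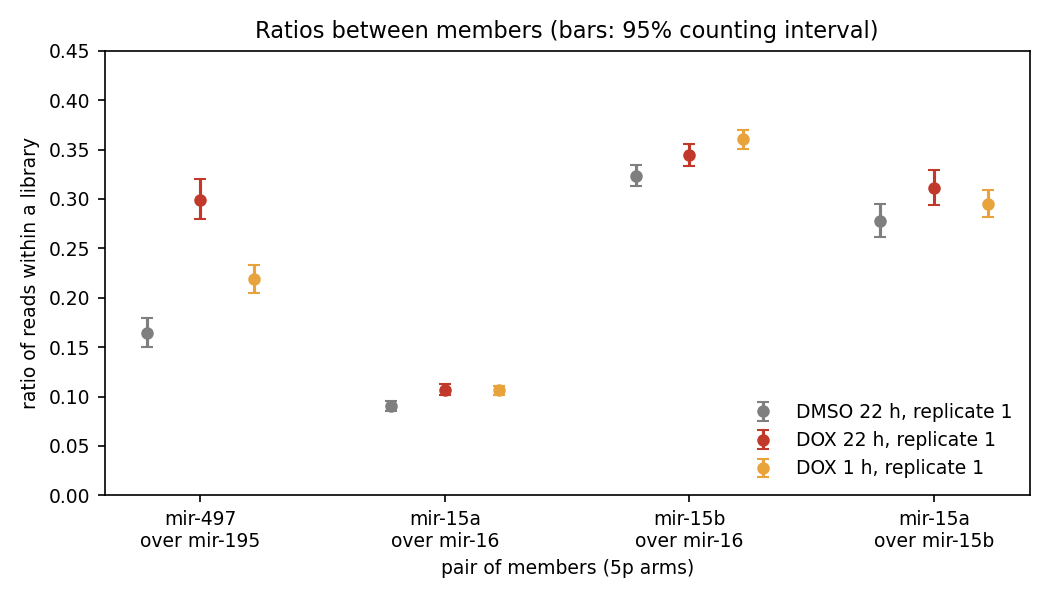
Reads of 1 member divided by reads of another within a library (vertical axis) for 4 pairs of 5p arms (horizontal axis) in 3 libraries; bars are 95% counting intervals. mir-497 over mir-195 goes from 0.164 in DMSO 22 h to 0.219 in DOX 1 h and 0.299 in DOX 22 h.

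The 3′ ends of mir-16 are shown next, because base 19 came in more than 1 kind there. Capitals mark the letters past the 18 bases that these sequences share.
mir-16, 19 bases: gcagcacgtaaatattggC
mir-16, 20 bases: gcagcacgtaaatattggCG
mir-16, 21 bases: gcagcacgtaaatattggCGT
mir-16, 19 bases with C19T: gcagcacgtaaatattggT
mir-16, 20 bases with C19T: gcagcacgtaaatattggTG
mir-16, 21 bases with C19T: gcagcacgtaaatattggTGT
mir-16, 21 bases with C19T and T21A: gcagcacgtaaatattggTGA
Substitutions are given against the unsubstituted form of the same length. Forms with C19T held 47.6% of the mir-16 5p signal in the 1 h table and 42.9% in the third table. Among 19-base forms they held 71.1% and 69.5% there, among 20-base forms 36.9% and 29.8%, and among 21-base forms 61.5% and 59.1%. In these means the substituted base was most common where it was the last base. Read back by library, C19T held 67.3% of the 19-base forms in DMSO 22 h (65.96 to 68.5), 70.5% in DOX 22 h (69.1 to 71.8) and 68.6% in DOX 1 h (67.5 to 69.8). The 20-base form with C19T alone had means of 4375 and 2706 in these 2 tables and was not analysed here at 22 h, so it enters no library value.

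Within the forms read back, the DMSO 22 h library differed from both DOX libraries. C19T was in 39.9% of the mir-16 reads of DMSO 22 h (39.2 to 40.7), 34.1% of DOX 22 h (33.4 to 34.9) and 34.4% of DOX 1 h (33.8 to 35.0). The 21-base forms carried this difference, with 16.01% of mir-16 reads in DMSO 22 h (15.4 to 16.6), 10.2% in DOX 22 h (9.75 to 10.7) and 11.6% in DOX 1 h (11.2 to 12.05). For the 19-base form with C19T, the shares were closer together, at 22.2% (21.6 to 22.9), 21.4% (20.7 to 22.1) and 20.8% (20.2 to 21.3). Among 21-base forms, C19T made up 68.3% in DMSO 22 h (66.8 to 69.8), 58.1% in DOX 22 h (56.2 to 60.0) and 59.8% in DOX 1 h (58.3 to 61.3). In DMSO 22 h the share was thus alike at 19 and 21 bases, with overlapping intervals, and in both DOX libraries it was lower at 21 bases.

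By sequence, the log2 ratios of mir-16 over DMSO 22 h ran in an order of their own. The leading 20-base form had 6036 reads in DOX 22 h and 5431 in DMSO 22 h before scaling, a ratio of -0.017 (-0.070 to 0.036). The 19-base form with C19T was at -0.32 (-0.39 to -0.25) and the unsubstituted 19-base form at -0.53 (-0.64 to -0.43). The 21-base form with C19T and T21A, with 996 and 1601 reads, was at -0.85 (-0.97 to -0.74), and that with C19T alone, with 469 and 872, at -1.06 (-1.23 to -0.90). The unsubstituted 21-base form was at -0.27 (-0.39 to -0.15). The 20-base form with C19T and G20A went the other way, with 363 and 263 reads and a ratio of 0.29 (0.063 to 0.53). The lower sum of mir-16 in DOX 22 h than in DMSO 22 h was therefore spread over its more abundant 19-base and 21-base forms. It did not appear in its leading form. Over DOX 1 h the leading form was itself lower, with 8833 reads in DOX 1 h before scaling and a log2 ratio of -0.19 (-0.23 to -0.14).

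The other members had their own 3′ ends, with capitals now marking what follows the shortest leading form.
mir-195, 20 bases: gcagcacagaaatattggcA
mir-15a, 20 bases: gcagcacataatggtttgtG
mir-15a, 21 bases: gcagcacataatggtttgtGT
mir-497, 20 bases: gcagcacactgtggtttgtA
mir-497, 21 bases: gcagcacactgtggtttgtAT
In mir-195 the 20-base form held 36.7% of reads in DMSO 22 h (35.1 to 38.3), 44.4% in DOX 22 h (42.8 to 46.0) and 46.0% in DOX 1 h (44.6 to 47.4). Its 19-base form held 55.1% (53.4 to 56.7), 47.2% (45.6 to 48.8) and 43.4% (42.0 to 44.8). The longer form thus had the smaller share in DMSO 22 h.

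In mir-15a and mir-497 it was the shortest leading form that had the smaller share in DMSO 22 h. The 19-base mir-497 form held 36.6% of reads in DMSO 22 h (32.7 to 40.6), 48.5% in DOX 22 h (45.5 to 51.5) and 47.9% in DOX 1 h (44.9 to 50.9). Its 20-base form held 38.1% (34.2 to 42.1), 32.8% (30.1 to 35.7) and 35.3% (32.5 to 38.2), and its 21-base forms together 25.4% (21.9 to 29.1), 18.7% (16.4 to 21.1) and 16.8% (14.7 to 19.2). The 19-base mir-15a form held 29.9% (27.5 to 32.4), 35.8% (33.4 to 38.2) and 42.7% (40.7 to 44.8). Its 20-base form was level across the libraries, at 19.5%, 18.5% and 17.8%, with overlapping intervals. The 21-base forms of mir-15a together held 49.8% in DMSO 22 h (47.1 to 52.4), 44.5% in DOX 22 h (42.1 to 47.1) and 38.8% in DOX 1 h (36.8 to 40.8). At base 21, mir-15a also had T21A, with 5.37% of reads in DMSO 22 h, 7.70% in DOX 22 h and 6.91% in DOX 1 h, and T21G, with 4.51%, 5.46% and 5.24%. For both, the intervals of the 3 libraries overlapped.

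Mean lengths were weighted by reads. mir-497 was 19.9 bases in DMSO 22 h and 19.7 in both DOX libraries, and its difference of -0.19 bases between DOX 22 h and DMSO 22 h was undercut by 3 of 133 arms with at least 2 sequences and 100 reads in each library. mir-195 was longer in DOX 22 h than in DMSO 22 h by 0.071 bases, and 113 of the 133 arms had a lower difference. Over all 133 arms the median difference was -0.010 bases. Against DMSO 22 h, mir-497 and mir-195 thus differed in opposite directions. Against DOX 1 h, both were longer in DOX 22 h by small amounts, 0.012 bases for mir-497 and 0.0057 for mir-195. mir-15a differed from DMSO 22 h by -0.12 bases, with 11 of the 133 arms lower, and from DOX 1 h by 0.11 bases, with 126 lower, so that its length in DOX 22 h lay between those in the other libraries.

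**Figure D4:**
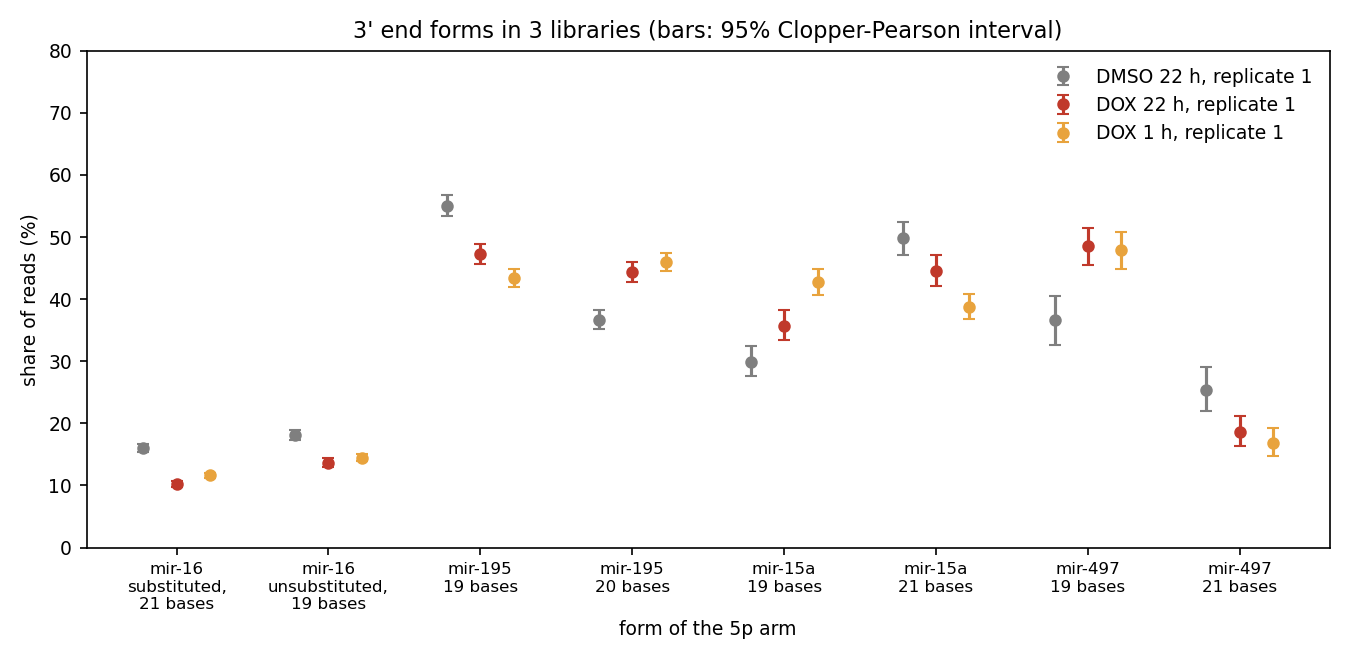
Share of a member's 5p reads held by a form (vertical axis, %) for 8 forms (horizontal axis) in 3 libraries; bars are 95% Clopper-Pearson intervals. For mir-16 the shares are of all forms read back (substituted) or of unsubstituted forms (unsubstituted, 19 bases: 18.1% in DMSO 22 h, 13.6% in DOX 22 h, 14.5% in DOX 1 h). In each of the 8 forms, which were chosen after their values were seen, the interval of DMSO 22 h overlaps with neither DOX library, by a narrow margin for the 21-base mir-15a forms.

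miRNAs with a related seed were taken as a fixed list of 6 precursors. The leading sequence of hsa-mir-424, GCAGCAattcatgttttga, begins with 6 of the 7 family letters, that of hsa-mir-503, GCAGCgggaacagtactgc, with 5, while that of hsa-mir-103a-1 and hsa-mir-103a-2, cagcattgtacagggctatga, and that of hsa-mir-107, cagcattgtacagggctatca, were listed from a later base. hsa-mir-646 was not analysed here. The 5p arm of hsa-mir-503 had 190 reads in DOX 22 h, 75 in DMSO 22 h and 177 in DOX 1 h, with log2 ratios of 1.17 (0.78 to 1.58) over DMSO 22 h and 0.46 (0.16 to 0.77) over DOX 1 h. That of hsa-mir-424, from the same cluster, was at 0.13 (0.013 to 0.24) and -0.10 (-0.20 to 0.00017). The ratios over DMSO 22 h were 0.49 (0.43 to 0.55) for hsa-mir-103a-1, 0.44 (0.38 to 0.50) for hsa-mir-103a-2 and 0.55 (0.46 to 0.64) for hsa-mir-107, and those over DOX 1 h were 0.18, 0.13 and 0.13. Outside the family, 145 arms were ranked by how near their 2 ratios lay to those of the family sum. Nearest was the 5p arm of hsa-mir-190a, at a distance of 0.025 on the log2 scale. Next came the 5p arm of hsa-let-7i at 0.075, of which 16.4% of the signal was read back, and the 3p arm of hsa-mir-29b-2 at 0.086. Over DMSO 22 h, hsa-mir-190a was at -0.17 (-0.38 to 0.038) and hsa-mir-29b-2 at -0.18 (-0.37 to 0.0032). These intervals are far wider than the distances, so the order is not firm.

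Marker miRNAs of other cells were read back to different extents. The fibroblast markers, 99.3% read back, had 10267 reads in DOX 22 h and 10141 and 10412 scaled reads in DMSO 22 h and DOX 1 h. The red blood cell markers, 98.2% read back, had 956, 1185 and 1297, mostly from hsa-mir-486-2 (the list also named hsa-mir-486, which matched no entry, and the tables also hold hsa-mir-486-1, whose reads are not in these sums), and the white blood cell markers, 72.5% read back, had 301, 338 and 242. For the cardiomyocyte and smooth muscle markers 1.03% and 1.08% of the signal was read back, and for the endothelial marker 14.9%, too little for a value by library. Fibroblast markers were thus level across the 3 libraries. The sum of the red blood cell markers was lowest in DOX 22 h, and for the white blood cell markers DOX 22 h lay between the others. The red blood cell sum mainly follows 1 precursor. Of its mean of 1300 in the third table, hsa-mir-486-2 made up 1137, hsa-mir-451a 145 and hsa-mir-144 18.5. These marker sums carry no intervals. The part of the other cell types in the values above was not tested.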

How the data were processed

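Small RNA libraries (TruSeq kit, HiSeq 2500) were processed by the authors with the BaseSpace Small RNA v1.0 application, alignment to human sequences (hg19, per the labels) and miRDeep, with MultiQC and FastQC as quality checks. The 3 deposited tables give, per entry, a signal computed by the authors, the mean over both sides of reads divided by size factors. They also hold the fold changes, errors, p-values and restated group columns of the authors' own DESeq2 comparisons, which were not used. The 1 h and 22 h tables had lost their decimal mark. The power of 10 was restored as the one nearest to the same entry's mean in the third table, with 10 set as the lowest value allowed. This floor was set in the restoring, so it does not show that no lower mean was listed. For 5 family entries of the 1 h table there was no mean in the third table, and they were not restored.

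At 22 h and in the third table, every mean was a whole multiple of 1 step within a relative tolerance of 1e-13. Reads were solved from both equations of an entry, with weights of 731 (DOX 22 h) and 822 (DMSO 22 h) at 22 h and of 9 (DOX 22 h) and 7 (DOX 1 h) in the third table. All 1052 entries with 1 solution at 22 h alone fitted the third table through the shared library; 14.3% would by chance, and the next best assignment fitted 132. The solver was tested on simulated data, and entries with several solutions were left out. DMSO 22 h reads were multiplied by 1.12 and DOX 1 h reads by 0.778, factors from tables normalised separately. Log2 ratios had 0.5 reads added. Intervals were exact Clopper-Pearson 95% intervals, or exact Poisson intervals in the plot of levels; PCR reads are not independent molecules, so they cover counting error only. With 1 library a side no test was made.

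Starts more than 15 bases apart were taken as different arms. Substitutions were counted against the most abundant sequence of an arm and its extensions, in place of the planned reference mature sequence. Named items were the 6 precursors, each sequence with at least 10% of its arm's reads in a library or past 2-fold with at least 20 reads, the related-seed list, the 3 nearest arms with at least 1000 reads, and marker miRNAs of 6 cell types. The members and lists were chosen with earlier results of these data known. Alternatives changed the scaling, the reads added, the sequences summed, the threshold and the minimum of reads. Python 3 with numpy, pandas and scipy was used.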

Additional observations from a re-analysis of the deposited data

How the results depend on the processing

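No paired analysis was possible because the values come from 1 library on each side and from no test; for the same reason no replicate could be left out. The family's log2 ratios stayed below 0 in all alternatives run. Over DMSO 22 h the main value of -0.18 became -0.12 with scaling by all reads read back, -0.086 with each member's most abundant sequence alone, -0.11 with unsubstituted sequences and -0.011 as the median of single sequences. Over DOX 1 h the main value of -0.18 became -0.15 with scaling by all reads read back, -0.22 when centred on the median entry and -0.083 as the median of single sequences. By member, mir-497 ranged from 0.58 to 1.12 over DMSO 22 h and from 0.32 to 0.40 over DOX 1 h. mir-16 ranged from -0.28 to -0.017 over DMSO 22 h, the last for its most abundant sequence alone, and mir-15b from -0.18 to -0.11. mir-15a over DMSO 22 h ranged from -0.064 to 0.25 and so has no direction, and over DOX 1 h from -0.45, with its most abundant sequence alone, to -0.083, as the median of single sequences. mir-195 over DMSO 22 h ranged from -0.38, with its most abundant sequence alone, to -0.040, as the median of single sequences. mir-195 over DOX 1 h reversed to 0.037 with its most abundant sequence alone, the 19-base form whose share differed between these libraries.

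Counts past 2-fold moved with the threshold and the minimum of reads by construction. Over DMSO 22 h all 1216 entries had 20 reads, so leaving out the minimum changed nothing there. Over DOX 1 h it let in 598 entries with under 20 reads, 572 of them solved from the third table alone, and in the family 13, all from the third table alone; the added calls below are of these. Over DMSO 22 h, 74 entries of the series were higher, and 127, 28 and 10 with a log2 threshold of 0.8, one of 1.5 and a minimum of 100 reads. Lower were 59, and 88 at 0.8, 19 at 1.5 and 14 with 100 reads. In the family 2 were higher, 3 at 0.8, 0 at 1.5 and 1 with 100 reads. Lower in the family were 2, and 3 at 0.8, 0 at 1.5 and 1 with 1 entry per sequence. Over DOX 1 h, 62 were higher, and 100 at 0.8, 20 at 1.5, 208 with no minimum and 9 with 100 reads; 20 were lower, and 41, 6, 231 and 3 under the same settings. In the family 3 were higher, 4 at 0.8, 0 at 1.5, 5 with no minimum and 0 with 100 reads. Lower in the family were 0, and 0 at 0.8 and 6 with no minimum. The family's share of the pooled signal fell to 0.267%, 0.224% and 0.219% in the 1 h table, the 22 h table and the third table with the most abundant entry of each member alone. Restricting the forms to sequences in all 3 tables or with at least 20 reads removed almost no reads, so these alternatives say nothing about how stable the shares of forms are. Where no construction shows it, the cause was not tested. Depth limits mir-497 and the rare forms, and the abundant 20-base mir-16 form with C19T is in no library value.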
